A study of Mus musculus with 12 samples.

Results

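The genes described here handle fatty acids in microglia, the resident macrophages of the brain. They are 8 genes chosen by name from the 46262 genes of the table: the fatty acid binding proteins Fabp3, Fabp4 and Fabp5, the scavenger receptor Cd36, the lipase Lpl, the droplet coat gene Plin2, the nuclear receptor Pparg and the secreted phospholipase Pla2g7. Each member was taken as the table rows that carry its symbol, and its level is the sum of those rows. The members were picked with their levels in the 4 groups known, so every difference between groups given for them is a description, without a test of its own. All 8 passed the filter on low values, which kept 12419 genes.

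The study asked how the 2 ligands of the CSF-1 receptor act on microglia of different brain regions. Primary microglia of wild-type (WT) mice came out of mixed glia grown from either region, forebrain or cerebellum. For 24 h they received CSF-1 (20 ng/ml) or, in its place, IL-34 (100 ng/ml). The design text gives 3 libraries for each of the 4 combinations of region and ligand, each from an independent mixed glial culture. No group without ligand is analysed here, and the 2 ligands differ in dose as well as in kind. The deposited values of all groups are named as those of neonatal microglia, and no exact age of the animals is stated. The cells were cultured, away from intact tissue. The labels' extraction text names a human source, against the mouse of every other label.

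Long-chain fatty acids reach macrophages free or inside lipoproteins. Lipoprotein lipase releases them from lipoprotein triglyceride, and CD36 helps them across the membrane and also binds oxidised lipoproteins. Inside the cell, fatty acid binding proteins carry them through the cytosol, and what is not burned is stored as triglyceride in lipid droplets, whose surface perilipin 2 covers. PPARγ is a nuclear receptor that fatty acids and their oxidised products activate, and in macrophages Fabp4, Cd36, Lpl and Plin2 are known targets of it. The Pla2g7 product circulates with lipoproteins and cleaves platelet-activating factor and oxidised phospholipids. In microglia, Lpl and Fabp5 are known as part of the state seen around amyloid plaques and in early postnatal white matter.

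The sequences shown first are the stretches just upstream of transcript starts for 3 starts of Pparg, whose transcripts the table lists apart, and for Cd36 and Plin2, abundant known targets of its product. RefSeq promoter windows on GRCm38.p6 were found for 5 of the 8 members (Pparg, Cd36, Plin2, Fabp3 and Pla2g7), and Fabp4, Fabp5 and Lpl had no entry. Each stretch is given on the strand of its gene, 5′ to 3′, and stops before the first annotated exon. The stretches are chr6:115360894-115360950, chr6:115362099-115362291 and chr6:115421816-115422065 on the plus strand for Pparg, and chr5:17835897-17836146 for Cd36 and chr4:86670061-86670309 for Plin2 on the minus strand. Capitals mark AGGTCA read on the opposite strand, the core that nuclear receptors of the PPAR and RXR kind bind.
Pparg start 1: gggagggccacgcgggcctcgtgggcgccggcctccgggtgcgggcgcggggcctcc
Pparg start 2: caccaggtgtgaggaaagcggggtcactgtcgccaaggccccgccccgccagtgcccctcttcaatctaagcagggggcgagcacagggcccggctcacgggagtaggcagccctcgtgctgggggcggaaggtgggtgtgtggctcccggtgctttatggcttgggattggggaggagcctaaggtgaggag
Pparg start 3: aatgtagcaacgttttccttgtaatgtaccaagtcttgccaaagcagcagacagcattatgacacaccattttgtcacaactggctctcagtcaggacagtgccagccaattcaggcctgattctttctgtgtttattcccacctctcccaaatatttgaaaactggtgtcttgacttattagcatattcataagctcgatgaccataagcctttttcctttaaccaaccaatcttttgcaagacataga
Cd36: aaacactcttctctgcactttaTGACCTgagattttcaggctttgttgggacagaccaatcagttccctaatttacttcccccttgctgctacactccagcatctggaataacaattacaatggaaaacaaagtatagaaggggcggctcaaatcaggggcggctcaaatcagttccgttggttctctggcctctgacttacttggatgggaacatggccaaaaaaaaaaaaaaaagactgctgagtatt
Plin2: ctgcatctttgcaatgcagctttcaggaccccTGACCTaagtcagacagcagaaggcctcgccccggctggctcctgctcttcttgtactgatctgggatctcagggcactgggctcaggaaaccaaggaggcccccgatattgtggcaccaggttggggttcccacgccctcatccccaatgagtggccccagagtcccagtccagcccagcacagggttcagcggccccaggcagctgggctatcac
AGGTCA, searched on both strands, stood 218 bases before the RefSeq start of Plin2 and 228 bases before that of Cd36. It also stood 28 and 9 bases before the RefSeq starts of the first and second Pparg windows, outside the stretches printed, and was not among the letters of the third window. Of all 32851 RefSeq windows of 300 bases, 16.3% hold these 6 letters, so their presence is common. The repeat with 1 base between the copies, AGGTCANAGGTCA, occurred in 0.0396% of windows and in none of the members' windows, which says only that those letters are not there. CACGTG, which 7.15% of windows hold and factors of the USF and MiT kind can bind, stood 4 bases before the Plin2 start.

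The 12 libraries were alike in breadth, with 11740 to 11904 genes at 1 TPM or more. Levels are in TPM, which sets reads against transcript length and gives all libraries 1 total, so it holds no depth. Levels can be compared between genes, less surely for genes of short transcripts. Correlations of log2 values were 0.991 to 0.995 within groups and 0.980 to 0.995 between groups. Each library differed in how short a transcript it still reported: its length floor, the length under which 1% of transcripts at 5 TPM or more fall, was 597.57 to 669 nt (CSF-1) and 621.23 to 669 nt (IL-34) in forebrain, and 592 to 661 nt (CSF-1) and 491 to 580 nt (IL-34) in cerebellum. The floors of the 2 ligands overlapped in forebrain and did not overlap in cerebellum. All 10 microglial markers were present, summing to 7177 to 7856 TPM. Markers of 6 border macrophage genes summed to 37.8 to 162 TPM and were highest in cerebellum with IL-34 (113 to 162 TPM). That order was the order of Pf4 alone, with means of 22.7 and 17.3 TPM in forebrain and 41.8 and 106 TPM in cerebellum (CSF-1 first in each pair). Mrc1 (37.8, 35.3, 29.7 and 25.5 TPM in the same order) and F13a1 (28.7, 26.3, 6.19 and 5.29 TPM) were lowest in cerebellum with IL-34, and Lyve1 and Cd163 stayed under 1 TPM in every library. Pf4 was at 0 in the libraries with the highest floors: forebrain CSF-1 replicate 3, forebrain IL-34 replicate 1 and cerebellum CSF-1 replicate 1. It was highest in cerebellum IL-34 replicates 1 and 2 (131 and 109 TPM), which had the lowest floors (503 and 491 nt). The part of transcript length in the Pf4 levels was not tested. Of 6 adipocyte markers, Adipoq, Lep, Cfd and Cidec were at 0 in all 12 libraries, and the list summed to at most 0.528 TPM.

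**Figure D1:**
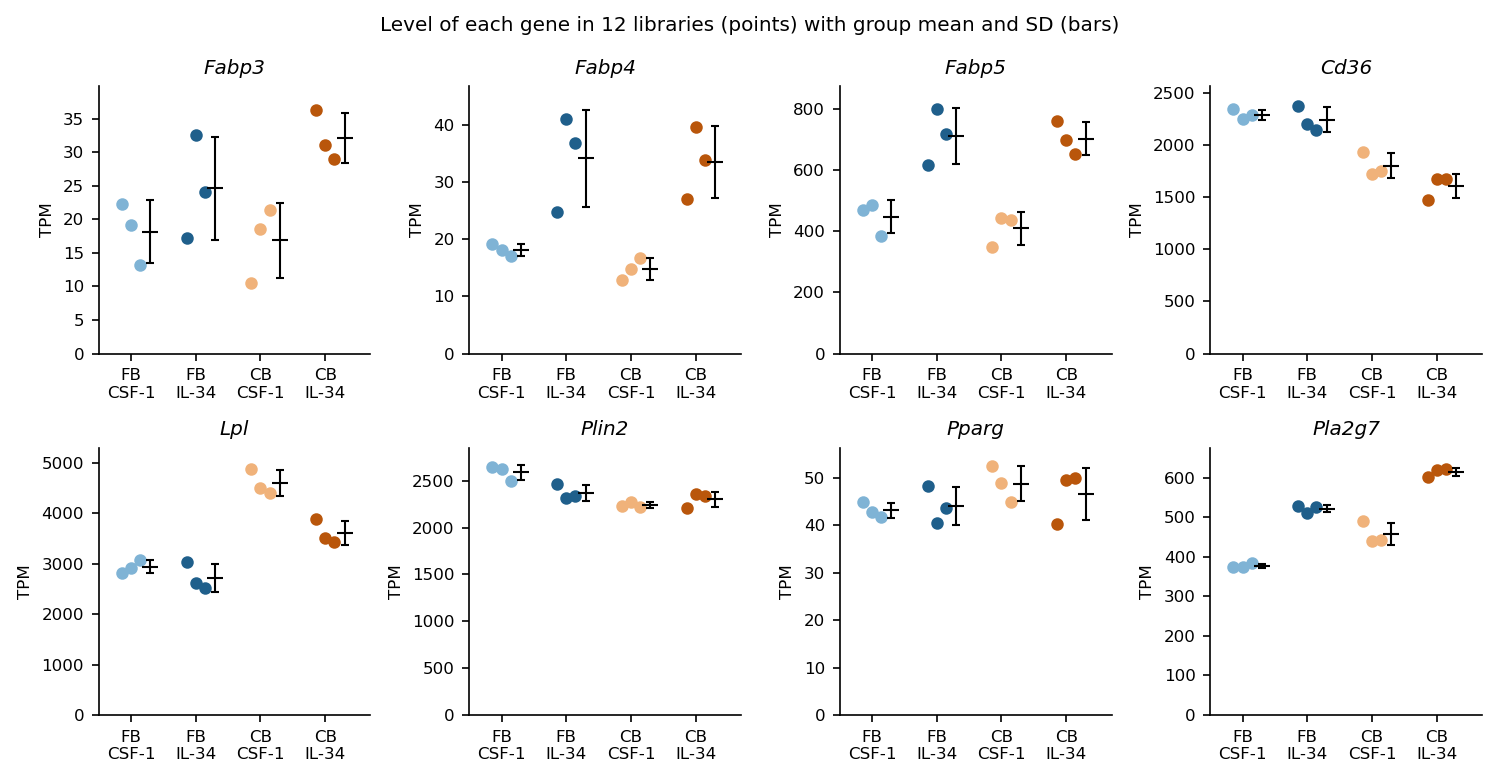
Level of each of the 8 genes in TPM (y axis, from 0) in the 4 groups (x axis; FB, forebrain; CB, cerebellum; CSF-1 or IL-34), with 1 point per library and a bar for the mean and SD of the 3 libraries. The IL-34 points of Fabp4, Fabp5 and Pla2g7 lie above the CSF-1 points of the same region, Lpl is highest in cerebellum with CSF-1, Cd36 is lower in cerebellum, and Plin2 and Pparg are nearly level.

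By mean level over the 12 libraries, the order was Lpl (3466 TPM), Plin2 (2376 TPM), Cd36 (1986 TPM), Fabp5 (568 TPM), Pla2g7 (493 TPM), Pparg (45.7 TPM), Fabp4 (25.2 TPM) and Fabp3 (23.0 TPM). Among the 12419 genes tested, Lpl ranked 17, Plin2 29 and Cd36 43 by mean TPM, whereas Fabp3 ranked 5757. The library ranges of Lpl and Plin2 overlapped, as did those of Plin2 and Cd36, of Fabp5 and Pla2g7, of Pparg and Fabp4, and of Fabp4 and Fabp3. The lipase, the coat protein and the uptake receptor were thus among the most abundant messages of these cells. Fabp5, the most abundant carrier, ranked 188, and all its libraries lay below those of these genes. The carriers have short transcripts, and the part of transcript length in their ranks was not tested.

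With IL-34 in place of CSF-1, the 3 carriers and Pla2g7 were higher and Lpl was lower as the mean of both regions. In limma on log2(TPM + 1), with Benjamini-Hochberg adjustment over all 12419 genes, 4 members were called higher and 1 lower. Of all tested genes, 13.4% were called in this comparison, 2.73% higher and 10.7% lower. The median difference of the 8 members was 0.21 on this scale and that of all tested genes -0.07. Since the members were picked on these values, nothing is read from these counts. In a bulk measurement, fewer cells of a kind and less transcript per cell cannot be told apart.

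Fabp5, the epidermal type carrier (chromosome 3, 10012548 to 10016607, plus strand, GRCm38), was the most abundant of the 3. In forebrain its level was 471, 484 and 385 TPM in the 3 libraries with CSF-1 and 616, 799 and 719 TPM in those with IL-34. In cerebellum it was 348, 442 and 437 TPM with CSF-1 and 760, 698 and 652 TPM with IL-34. Every IL-34 library lay above every CSF-1 library in both regions, as 5.9% of all genes did in forebrain and 8.21% in cerebellum. The group means were 447 ± 53.7 and 711 ± 91.8 TPM in forebrain and 409 ± 52.7 and 703 ± 53.9 TPM in cerebellum (SD, n = 3 each). On the log2 scale the difference of IL-34 minus CSF-1 was 0.67 (SE 0.12) in forebrain and 0.79 (SE 0.12) in cerebellum, 1.59-fold and 1.72-fold. The forebrain call was lost without any one of the 3 forebrain CSF-1 libraries and without forebrain IL-34 replicate 2 or 3. The 2 regions differed by less than the library spread, by -0.07 (SE 0.09) as cerebellum minus forebrain.

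Fabp4, the adipocyte and macrophage carrier (chromosome 3, 10204088 to 10208576, minus strand), was far rarer and, in the values as deposited, had the largest relative ligand difference of the 8 members in both regions. Its forebrain levels were 19.2, 18.1 and 17.2 TPM with CSF-1 and 24.8, 41.2 and 36.8 TPM with IL-34. Its cerebellar levels were 12.9, 14.7 and 16.7 TPM with CSF-1 and 27.2, 39.6 and 33.9 TPM with IL-34. Here too the ligand groups did not overlap in either region, while the IL-34 libraries were more scattered than the CSF-1 libraries. The differences were 0.85 (SE 0.18) in forebrain and 1.12 (SE 0.18) in cerebellum on the log2 scale, 1.80-fold and 2.18-fold. The forebrain difference lay just outside the threshold, and 2 members, Fabp5 and Pla2g7, were called there against 1.2% of all genes. In cerebellum 4 members were called higher (Fabp3, Fabp4, Fabp5 and Pla2g7) and Lpl lower, against 12.8% of all genes (3% higher and 9.82% lower). The border macrophage markers, 4 of 6 at 1 TPM or more in some library, summed to 37.8 to 121 TPM in cerebellum with CSF-1 and 113 to 162 TPM with IL-34. The sum was higher through Pf4 (41.8 and 106 TPM), while Mrc1 (29.7 and 25.5 TPM) and F13a1 (6.19 and 5.29 TPM) were not, and the part of such cells in the carrier differences was not tested.

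Fabp3, the heart type carrier (chromosome 4, 130308595 to 130315463, plus strand), varied most among libraries of one group. Its forebrain levels, 22.3, 19.1 and 13.2 TPM with CSF-1 and 17.2, 32.6 and 24.0 TPM with IL-34, overlapped. Its cerebellar levels were 10.5, 18.6 and 21.4 TPM with CSF-1 and 36.3, 31.0 and 29.0 TPM with IL-34, without overlap. The log2 difference was 0.40 (SE 0.28) in forebrain and 0.94 (SE 0.28) in cerebellum, and the difference between those 2 values, 0.54, was not called. The cerebellar call was kept in 4 of 12 fits with 1 library left out, those without forebrain CSF-1 replicate 3, forebrain IL-34 replicate 1 or 2, or cerebellum CSF-1 replicate 3. Its locus overlaps Zcchc17 on the opposite strand, which ranged from 11.5 to 18.2 TPM, and the library kit does not mark strand. The copy Fabp3-ps1 was at 0 except for 7.80 TPM in 1 cerebellum IL-34 library, replicate 2, and the Fabp5-like copy Fabp5l2 was at 0 in all.

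The 3 carriers are encoded by short transcripts. Fabp3 has 1 annotated transcript of 823 nt, and the coding transcripts of Fabp4 and Fabp5 are 896 and 987 nt long, in GENCODE M21. Fabp4 and Fabp5 each also have an annotated retained-intron transcript, of 4231 and 3238 nt. The coding transcripts held 88.9% of Fabp4 and 90.6% of Fabp5 over all libraries.

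**Figure D2:**
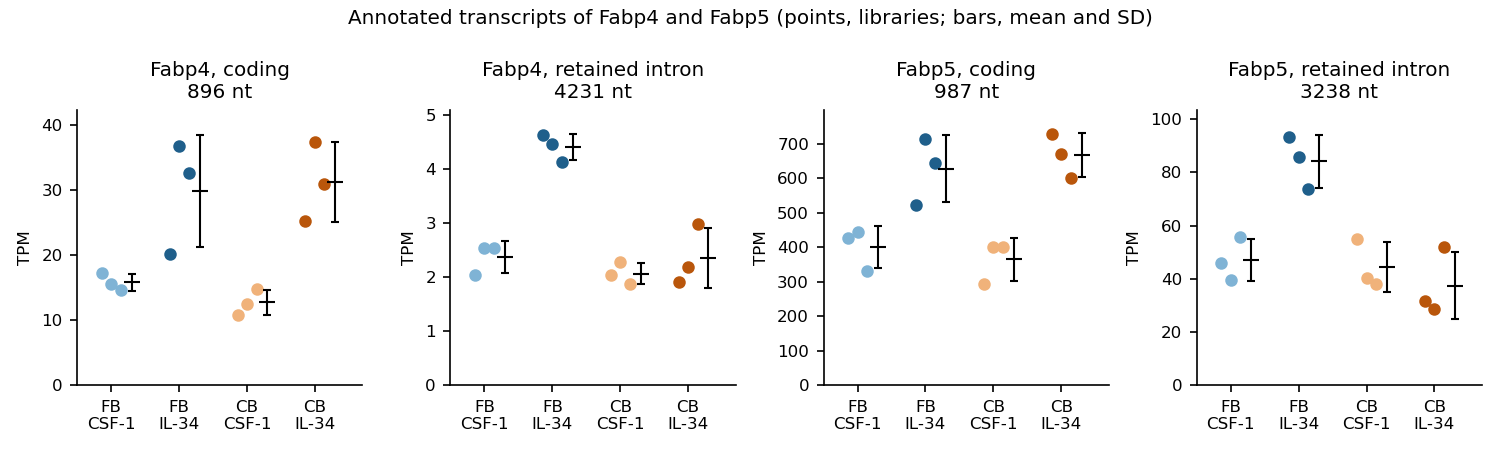
Level in TPM (y axes, from 0, each with its own range) of the coding and the retained-intron transcript of Fabp4 and Fabp5 in the 4 groups (FB, forebrain; CB, cerebellum), with 1 point per library and a bar for mean and SD (n = 3). The coding transcripts are higher with IL-34 in both regions, and the retained-intron transcripts are higher with IL-34 in forebrain and overlap between ligands in cerebellum.

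In forebrain, coding and retained-intron transcripts of both genes were higher with IL-34. The retained-intron transcript of Fabp5 was 45.9, 39.6 and 55.6 TPM with CSF-1 and 93.2, 85.7 and 73.6 TPM with IL-34, and that of Fabp4 was 2.03, 2.53 and 2.55 TPM with CSF-1 and 4.63, 4.47 and 4.14 TPM with IL-34. Neither pair of groups overlapped. In cerebellum the retained-intron transcript of Fabp5 was 55.0, 40.3 and 37.9 TPM with CSF-1 and 31.6, 28.7 and 51.8 TPM with IL-34, and that of Fabp4 was 2.07 ± 0.20 and 2.36 ± 0.56 TPM (SD, n = 3). There both overlapped, and by these estimates the cerebellar difference of each gene sat in its coding transcript. How reads that both forms share were divided is an estimate of the quantification, so this split is uncertain. The cerebellum IL-34 libraries are also those with the lowest length floors, and the part of this in the split was not tested. The log2 differences in cerebellum were 0.88 (SE 0.16) for coding Fabp5 against -0.27 (SE 0.23) for its retained-intron form, and 1.23 (SE 0.22) against 0.12 (SE 0.17) for Fabp4. The retained-intron share of Fabp5 averaged 5.41 ± 2.19% in the cerebellum IL-34 group and 10.8 ± 3.25 to 12.03 ± 2.69% in the other 3 (SD, n = 3). For Fabp4 it was 7.12 ± 1.64% in that group and 13.1 ± 2.24 to 14.2 ± 2.53% in the others. Fitted as single transcripts, no retained-intron form was called in any ligand comparison, where 0.0366% of transcripts were called in forebrain and 2.67% in cerebellum.

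The carriers moved with the length floor of the library inside groups. In 3 groups, the cerebellum IL-34 group aside, the library with the highest floor had the lowest Fabp3, Fabp4 and Fabp5 of its group. In the cerebellum IL-34 group this held for Fabp3 and Fabp5. The long retained-intron transcript of Fabp5 went the other way, being highest in the library with the highest floor in each of the 4 groups. Pairs of forebrain libraries with nearly the same floor were set side by side after the data had been seen, without a test. At 621 and 621.23 nt, Fabp5 was 471 TPM with CSF-1 and 719 TPM with IL-34 (1.53-fold), Fabp4 was 19.2 and 36.8 TPM (1.92-fold), and Fabp3 was 22.3 and 24.0 TPM (1.08-fold). At 669 nt in both, Fabp5 was 385 and 616 TPM (1.60-fold), Fabp4 was 17.2 and 24.8 TPM (1.44-fold), and Fabp3 was 13.2 and 17.2 TPM (1.31-fold). At matched floors, IL-34 thus stood above CSF-1 for all 3 carriers in both forebrain pairs, by the least for Fabp3. No such pair exists in cerebellum, where the floors of the ligands do not overlap, and the part of transcript length in the cerebellar difference cannot be told apart from the ligand.

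**Figure D3:**
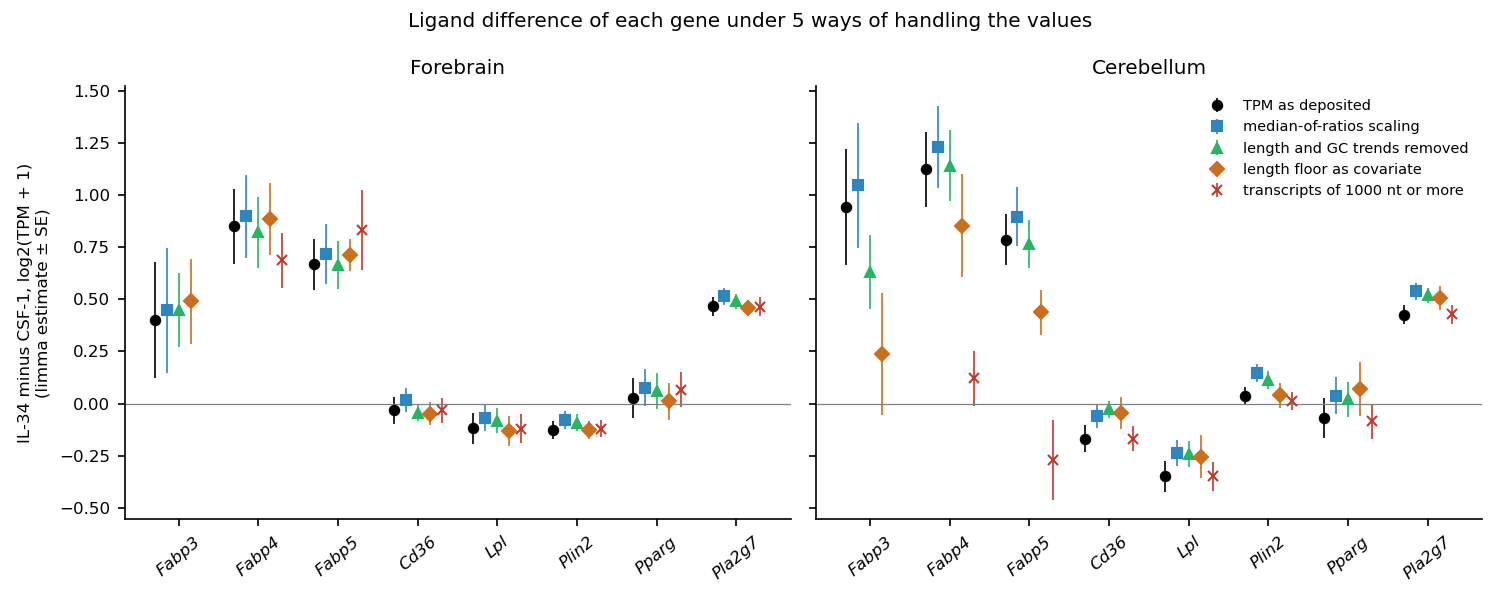
Log2 difference of IL-34 minus CSF-1 (y axis, limma estimate ± SE, log2(TPM + 1)) for each gene (x axis) in forebrain and cerebellum, with the values as deposited and under 4 other treatments of the values. Fabp3 has no transcript of 1000 nt or more and so lacks that symbol. The forebrain estimates of Fabp4, Fabp5 and Pla2g7 stay above 0.4 throughout, whereas in cerebellum Fabp5 runs from 0.79 as deposited to -0.27 with transcripts of 1000 nt or more and Pla2g7 stays between 0.43 and 0.54.

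With the floor of each library as a covariate, the forebrain differences were 0.88 for Fabp4 and 0.71 for Fabp5. In cerebellum they became 0.85 and 0.44 and were no longer called, and Fabp3 became 0.24. After removal of each library's smooth trends along length and GC content, Fabp4 was 1.14 and Fabp5 0.77 in cerebellum, close to the values as deposited. The other fatty acid binding proteins gave few measurable genes: 3 of 12 passed the filter. Of these 3, Scp2, a sterol and lipid carrier, rose with IL-34 by 0.15 (SE 0.04, limma adjusted p = 0.0439), and the acyl-CoA binding protein gene Dbi, whose messages are also short, was 198 ± 23.2 TPM in cerebellum with IL-34 and 63.4 ± 28.4 to 87.8 ± 51.1 TPM in the other groups (SD, n = 3) and was not called. Fabp7, the brain type carrier known from radial glia and astrocytes, fell in cerebellum against forebrain by 1.41 on the log2 scale (SE 0.09, limma adjusted p = 3.36e-06), from 17.6 ± 1.92 and 20.6 ± 3.6 TPM to 6.54 ± 0.608 and 6.50 ± 0.777 TPM. The summed astrocyte markers also differed by region, at 28.9 to 31.7 TPM in forebrain and 14.5 to 19.8 TPM in cerebellum. Most single markers were lower in cerebellum in mean. Slc1a3 was near level (2.60 and 3.05 TPM in forebrain, 2.60 and 2.30 TPM in cerebellum, CSF-1 first), and S100b, under 1 TPM, was higher in cerebellum. The part of astrocytes in the Fabp7 difference was not tested.

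Cd36, the fatty acid and oxidised lipoprotein receptor (chromosome 5, 17781690 to 17888801, minus strand), differed by region and little by ligand. In forebrain it was 2343, 2247 and 2285 TPM with CSF-1 and 2378, 2203 and 2147 TPM with IL-34, and the ligand groups overlapped. In cerebellum it was 1938, 1725 and 1748 TPM with CSF-1 and 1471, 1672 and 1674 TPM with IL-34. All 6 cerebellar libraries lay below all 6 forebrain libraries, as 4.18% of all genes did. Cerebellum minus forebrain was -0.42 (SE 0.05) on the log2 scale, 0.750-fold, being -0.35 with CSF-1 and -0.48 with IL-34. In this region comparison 4 members were called, Lpl and Pla2g7 higher and Cd36 and Plin2 lower, against 20.1% of all genes (9.58% higher and 10.6% lower). The ligand difference was -0.03 (SE 0.06) in forebrain and -0.17 (SE 0.06) in cerebellum, and neither was called.

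The Cd36 message was spread over 5 coding transcripts, which held 36.4, 21.6, 20.3, 14.1 and 7.63% of it. The transcripts with 14.1 and 7.63% begin near each other, at 17849729 and 17849792. The transcripts with 36.4 and 20.3% begin at 17835717 and 17835696, just downstream of the Cd36 stretch printed above. Of the 5, the transcript that begins farthest upstream, at 17888747 (ENSMUST00000169095), stood apart in cerebellum with IL-34. It made up 28.4 ± 3.54% of Cd36 there (SD, n = 3), and no library of the other 3 groups reached any of these 3, the highest being 23.2%. Its own level was 456 ± 69.2 TPM there and 353 ± 33.7 TPM in cerebellum with CSF-1 (SD, n = 3), while the other 4 abundant transcripts were lower with IL-34. Taken alone, none of the 5 was called in a ligand comparison. The cerebellum IL-34 libraries are also those with the lowest length floors, and the part of this in the shares was not tested.

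Of 10 measured genes of fatty acid uptake and activation, 1 fell and none rose with IL-34, and 1 rose and 1 fell in cerebellum. Of all genes, 13.4% were called for the ligand and 20.1% for the region. Msr1, the class A scavenger receptor, fell in both comparisons. Its forebrain mean was 1094 ± 25.2 TPM with CSF-1 and 938 ± 41.5 TPM with IL-34, and its cerebellar mean 712 ± 19.6 and 613 ± 36.9 TPM (-0.22, SE 0.04, limma adjusted p = 0.00427), and cerebellum minus forebrain was -0.62 (SE 0.04, adjusted p = 1.33e-06). Like Cd36, it was thus lower in cerebellum under both ligands. Slc27a1, a fatty acid transporter that also activates its cargo to acyl-CoA, rose in cerebellum, from 168 ± 8.92 and 178 ± 10.3 TPM to 237 ± 8.42 and 229 ± 5.62 TPM (0.43, SE 0.04, adjusted p = 3.77e-05).

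Lpl, the lipase that frees fatty acids from lipoproteins (chromosome 8, 68880491 to 68907448, plus strand), was the most abundant member and ran opposite to Cd36 across the regions. Its forebrain libraries, 2826, 2923 and 3083 TPM with CSF-1 and 3026, 2610 and 2518 TPM with IL-34, overlapped. In cerebellum it was 4883, 4499 and 4395 TPM with CSF-1 and 3887, 3503 and 3434 TPM with IL-34. Every cerebellar library lay above every forebrain library, as 2.87% of all genes did. Within cerebellum every IL-34 library lay below every CSF-1 library, as 27.9% of all genes did. Cerebellum minus forebrain was 0.64 (SE 0.08) with CSF-1 and 0.41 (SE 0.08) with IL-34, 1.56-fold and 1.33-fold. The ligand difference was -0.12 (SE 0.08) in forebrain and -0.35 (SE 0.08) in cerebellum, and the difference between the regions, -0.23, was not called. The cerebellar call was lost without cerebellum CSF-1 replicate 1 or cerebellum IL-34 replicate 2. Summed markers of the oligodendrocyte lineage ran in the same order of groups, at 54.2 to 68.3 TPM in forebrain, 88.0 to 96.6 TPM in cerebellum with CSF-1 and 71.7 to 78.2 TPM with IL-34. Most of the sum was Mbp (40.1 and 39.6 TPM in forebrain, 69.7 and 60.6 TPM in cerebellum, CSF-1 first), and other markers did not follow the regions: Cspg4 was 20.8, 15.2, 19.5 and 12.4 TPM in the same order, and Olig2 and Pdgfra were lower in cerebellum in mean. Of the 7 markers, Mog and Sox10 stayed under 1 TPM in every library, and the part of such cells in the Lpl levels was not tested. With the length floor as a covariate, the cerebellar ligand difference was -0.25 and was no longer called.

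By TPM, which is already set against length, 74.4% of Lpl was a transcript of 1900 nt that GENCODE annotates as a target of nonsense-mediated decay and 24.8% the coding transcript of 4115 nt. The first was 2139 ± 116 and 1934 ± 204 TPM in forebrain and 3467 ± 158 and 2779 ± 283 TPM in cerebellum, and the second 785 ± 72.7 and 762 ± 63.9 TPM in forebrain and 1089 ± 107 and 805 ± 56.2 TPM in cerebellum (CSF-1 first in each pair; SD, n = 3). With CSF-1 both forms were higher in every cerebellar library than in any forebrain library. With IL-34 this held for the 1900 nt form (0.52, SE 0.09), while the coding form overlapped between the regions (0.08, SE 0.09). Both forms were lower with IL-34 in cerebellum, by 0.32 and 0.43 on the log2 scale. How reads that both forms share were divided is an estimate of the quantification, so the share of each is uncertain.

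Of 11 measured genes for partners of the lipase and for lipoprotein uptake, 1 fell with IL-34 and 4 rose in cerebellum. Of all genes, 10.7% were called lower with IL-34 and 9.58% higher in cerebellum. Among the 4 that rose were Sorl1, the sorting receptor for ApoE and amyloid precursor protein, and Sort1, another sorting receptor of the same family. Apoe, which encodes the main apolipoprotein made by glia, was among them too. Sorl1 went from 5.78 ± 0.432 and 6.90 ± 0.796 TPM in forebrain to 17.2 ± 5.72 and 19.9 ± 1.53 TPM in cerebellum (1.39, SE 0.12, limma adjusted p = 3.12e-05). Sort1 rose by 0.26 (adjusted p = 0.0138) and Apoe by 0.24 (adjusted p = 0.00692). The median of the list in this comparison was 0.24, and that of all genes 0.01. Lrp1, the large lipoprotein receptor, fell with IL-34 (-0.42, SE 0.12, adjusted p = 0.0444). Gpihbp1, the anchor of the lipase on capillary endothelium, was at 0 in all groups.

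Plin2, the main droplet coat gene of cells other than adipocytes (chromosome 4, 86648386 to 86670060, minus strand), was nearly level. In forebrain it was 2647, 2624 and 2496 TPM with CSF-1 and 2468, 2313 and 2336 TPM with IL-34. In cerebellum it was 2231, 2275 and 2219 TPM with CSF-1, and 2206, 2359 and 2336 TPM with IL-34. The forebrain CSF-1 libraries were the highest and stood apart from all others. CSF-1 lay above IL-34 without overlap in forebrain for 12.6% of all genes, and forebrain above cerebellum with CSF-1 for 12.2%. Cerebellum minus forebrain was -0.21 (SE 0.04) with CSF-1, which was called, and -0.04 (SE 0.04) with IL-34. With CSF-1, 4 members (Lpl, Pla2g7, Cd36 and Plin2) were called between regions, against 6.71% of all genes, and with IL-34 the same without Plin2, against 13.5%. When single libraries were left out in turn, the Plin2 call was kept in 7 of 12 fits. It was lost without any one of the 3 cerebellum CSF-1 libraries and without forebrain CSF-1 replicate 1 or 2. The ligand difference was -0.13 (SE 0.04) in forebrain and 0.04 (SE 0.04) in cerebellum. The main transcript of 1888 nt, whose start lies beside the stretch printed for Plin2, held 95.3% of the message. A short coding fragment of 551 nt was at 0 in all 6 forebrain libraries and averaged 11.2 ± 9.72 TPM in cerebellum with IL-34, the libraries with the lowest length floors.

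Of 21 measured genes of triglyceride synthesis and droplet coat, 1 rose, 3 fell and 17 were not called with IL-34, and 3 rose, 2 fell and 16 were not called in cerebellum, against 13.4% and 20.1% of all genes called. Soat1, which esterifies cholesterol for storage in droplets, rose with IL-34, with forebrain means of 297 ± 3.23 and 360 ± 8.97 TPM and cerebellar means of 330 ± 29.3 and 394 ± 35 TPM (SD, n = 3; 0.26, SE 0.05, limma adjusted p = 0.00829). The acyltransferase genes Agpat5 (-0.22, adjusted p = 0.0142) and Gpam (-0.25, adjusted p = 0.0439) and the droplet budding gene Fitm2 (-0.28, adjusted p = 0.0317) fell. Agpat9 was the gene of this list that fell most in cerebellum (-0.86, adjusted p = 0.000192), and Soat2 (0.58) and Dgat1 (0.33) rose there as the mean of both ligands. Dgat1 was level between the regions with CSF-1 (28.8 and 27.98 TPM), so its mean difference came from the IL-34 groups (25.1 TPM in forebrain and 41.5 TPM in cerebellum). Of the other perilipins, Plin3 was 104 to 116 TPM in group mean and was not called in either comparison, and Plin1, Plin4 and Plin5 were under 1 TPM. None of 11 measured genes of droplet lipolysis and lipophagy was called in either mean comparison.

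**Figure D4:**
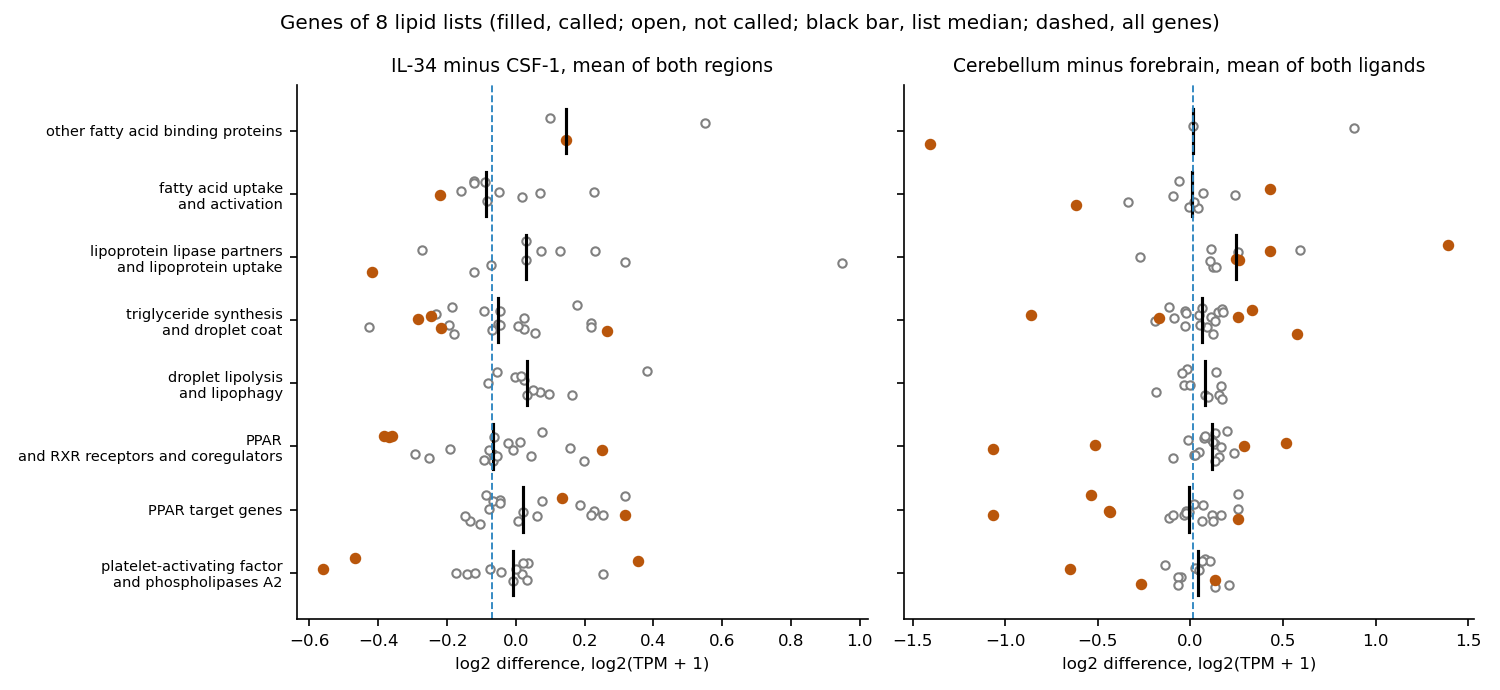
Log2 difference (x axis, log2(TPM + 1)) of each measured gene of 8 lipid lists (rows) for IL-34 minus CSF-1 and for cerebellum minus forebrain, each as the mean over the other factor. Filled points passed limma's test, open points did not, black bars are list medians and the dashed line is the median of all genes. Most points in each row are open, and for IL-34 minus CSF-1 filled points lie on both sides of 0 in 3 of the 8 rows.

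Pparg, the receptor gene (chromosome 6, 115360951 to 115490399, plus strand), was steady at a modest level. In forebrain it was 44.9, 42.8 and 41.7 TPM with CSF-1 and 48.4, 40.5 and 43.6 TPM with IL-34. In cerebellum it was 52.5, 48.9 and 45.0 TPM with CSF-1, and 40.3, 49.5 and 49.95 TPM with IL-34. The ligand groups overlapped in both regions, and the log2 ligand difference was 0.03 (SE 0.10) in forebrain and -0.07 (SE 0.10) in cerebellum. Cerebellum minus forebrain was 0.12 (SE 0.07), with no call, although the CSF-1 libraries of cerebellum all lay above those of forebrain, as 17.2% of all genes did.

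The 3 Pparg starts shown above were used unequally. The transcript from the most upstream start, at 115360951, held 66.5% of the message and ranged from 25.7 to 34.9 TPM over the 12 libraries. That from the second start, at 115362292, held 27.5% and ranged from 6.98 to 21.4 TPM. The transcript from the third start, at 115422066, encodes the longer PPARγ2 protein known from adipocytes. It held 3.19%, with 8.89 TPM in forebrain IL-34 replicate 3, 1.13 to 3.06 TPM in 4 libraries and under 0.1 TPM in the other 7. The 3 transcripts share most of their exons, so how reads were divided among them is uncertain, most of all for the third.

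Among 20 measured genes of the PPAR and RXR receptors and their coregulators, 1 rose and 3 fell with IL-34, and 2 rose and 2 fell in cerebellum. For this list and the next, the shares of all genes called were 13.4% for the ligand and 20.1% for the region. Rxra, the usual partner of PPARγ, was 56.0 to 62.5 TPM in group mean and was not called in either comparison. Cebpa, a factor that works with PPARγ in adipocytes and macrophages, rose with IL-34 (0.25, SE 0.06, limma adjusted p = 0.0262), and the coactivator genes Pprc1 (-0.38), Crebbp (-0.36) and Ncoa3 (-0.37) fell. Nr1h3, the sterol receptor LXRα and itself a PPARγ target, fell in cerebellum, from 34.9 ± 3.24 and 36.9 ± 2.43 TPM to 16.2 ± 0.984 and 17.2 ± 2.96 TPM (-1.07, SE 0.08, adjusted p = 9.93e-06). Of 19 measured PPAR targets outside the members, 2 rose with IL-34, the cholesterol exporter gene Abca1 (0.32, SE 0.08, adjusted p = 0.0298) and the fatty acid oxidation gene Acadl (0.13, adjusted p = 0.0448), and 17 were not called. In cerebellum 1 rose and 4 fell, among them the exporter gene Abcg1 (-0.44, adjusted p = 0.00626).

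Pla2g7 (chromosome 17, 43568098 to 43612201, plus strand), which encodes the plasma form of platelet-activating factor acetylhydrolase, separated the ligands with little scatter between libraries. In forebrain its levels were 374.4, 374.5 and 383.6 TPM with CSF-1 and 528, 512 and 526 TPM with IL-34. In cerebellum they were 490, 441 and 442 TPM with CSF-1 and 602, 620 and 622 TPM with IL-34. The ligand groups did not overlap in either region, and within each ligand the regions did not overlap either (cerebellum lay above for 17.2% of all genes with CSF-1 and 14.1% with IL-34). IL-34 minus CSF-1 was 0.47 (SE 0.05) in forebrain and 0.43 (SE 0.05) in cerebellum, 1.38-fold and 1.34-fold, and cerebellum minus forebrain was 0.27 (SE 0.05) with CSF-1 and 0.24 (SE 0.05) with IL-34. The 2 ligand differences were thus near each other, and their difference was -0.04 (SE 0.07). With the length floor as a covariate they were 0.46 and 0.50, both called, and in the 2 forebrain pairs of equal floor the ratio was 1.40 and 1.38. Together with Fabp4 and Fabp5, Pla2g7 was 1 of 3 members with every IL-34 library above every CSF-1 library in each region, a pattern found in 1.64% of all genes.

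Most of Pla2g7 came from its full-length coding transcript of 2097 nt (74.3%). The length floors of all libraries lie below that length, and below the shorter coding transcripts of the carriers too. The 2097 nt transcript was 283 ± 15.5 and 406 ± 13.6 TPM in forebrain and 353 ± 37.4 and 423 ± 35.5 TPM in cerebellum (CSF-1 first in each pair; SD, n = 3). Its ligand groups did not overlap in forebrain (0.52, SE 0.08) and overlapped in cerebellum (0.26, SE 0.08). Taken alone it was called in neither region. A retained-intron transcript of 1374 nt was 80.3 ± 6.72 and 132 ± 36.7 TPM in cerebellum, without overlap, and 73.2 ± 15.2 and 79.0 ± 8.72 TPM in forebrain. By these estimates part of the cerebellar difference of the gene sat in the shorter forms, and how shared reads were divided is uncertain. A coding transcript of 1112 nt was 55.8 ± 15.7 TPM in cerebellum with IL-34 and 19.1 ± 2.75 to 32.4 ± 5.02 TPM elsewhere. The locus overlaps the antisense gene 1700071M16Rik, which was 0.888 to 8.70 TPM.

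Of 15 other measured genes of platelet-activating factor and phospholipase A2 biology, 1 rose, 2 fell and 12 were not called with IL-34, against 13.4% of all genes called, and the list median was -0.01 against -0.07 for all genes. Ptafr, the receptor for platelet-activating factor, was the one that rose: it was 18.2, 17.0 and 17.5 TPM with CSF-1 and 23.4, 22.4 and 23.1 TPM with IL-34 in forebrain, and 19.3, 20.1 and 19.3 TPM with CSF-1 and 24.3, 25.2 and 25.7 TPM with IL-34 in cerebellum. The ligand groups did not overlap, and the mean difference was 0.36 (SE 0.04, limma adjusted p = 0.000578). Pla2g4a, the cytosolic phospholipase that frees arachidonic acid and the precursor of platelet-activating factor, fell, with forebrain means of 89.0 ± 3.6 and 65.6 ± 3.99 TPM and cerebellar means of 98.2 ± 4.57 and 69.2 ± 5.53 TPM (-0.47, SE 0.05, adjusted p = 0.000332). Lpcat4, an acyltransferase of the same lipid class, also fell (-0.56, SE 0.13, adjusted p = 0.0189). In cerebellum against forebrain, the phospholipase gene Pla2g16 (-0.65, adjusted p = 0.000801) and Lpcat2, the acyltransferase that makes platelet-activating factor in macrophages (-0.27, adjusted p = 0.00107), fell, and Ptafr rose slightly (0.13, adjusted p = 0.0404). Among the 106 measured genes of all 8 lists, Ptafr and Pla2g4a were the 2 called in the forebrain comparison.

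Over these 106 genes, each counted once, 6 rose and 10 fell with IL-34 as the mean of both regions and 90 were not called. The count for the ligand was 7 to 10 without cerebellum CSF-1 replicate 1 or 3, cerebellum IL-34 replicate 1 or 2, forebrain CSF-1 replicate 2 or forebrain IL-34 replicate 2. The called share was near the 13.4% of all genes, with a median of -0.03 against -0.07. By region, 11 rose and 11 fell, beside 20.1% of all genes. For the interaction of region and ligand, limma called 0 of the 8 members and 0 of the 106 genes, while 0.145% of all genes were called, and 1 member, Plin2, had an unadjusted p under 0.05. No other tool was run.

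The genes whose levels ran most like those of each member over the 12 libraries were taken from 8807 genes with a mean of 5 TPM or more. Fabp4 was most like Fabp5 (Pearson's r = 0.935), and Fabp3 ran with Bcl2a1b (0.961) and Arf5 (0.961). Nearest to Fabp5 were Ypel3 (0.951) and P2rx4 (0.941). Cd36 ran with Nkiras2 (0.983), Lpl with Agap1 (0.976), Plin2 with Dcakd (0.917) and Pparg with Stambp (0.893). Pla2g7 ran with the chemokine receptor gene Cxcr4 (0.969), with Ptafr (0.964) and with Gpnmb (0.963), a lysosomal glycoprotein of lipid-laden macrophages. Between members of different roles, r was 0.70 for Fabp5 with Pla2g7, -0.66 for Cd36 with Lpl and 0.73 for Cd36 with Plin2. The points are the same 12 libraries in 4 groups and share their length floors, so these values describe the order of groups and libraries, and the likeness of Fabp3 to Bcl2a1b is between messages of 823 and 817 nt.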

How the data were processed

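RNA of 12 libraries was measured, 3 for each region and ligand, with cDNA made with the SMART-Seq v4 kit, per the labels' protocols. The authors deposited TPM per Ensembl transcript, not counts. The submitters' processing notes name kallisto 0.43.0 and GRCm38. Annotation release, filters and any bias correction: not given in the sources used here. Transcript lengths, types and positions come from GENCODE M21 of GRCm38, which held 98.6% of the 115879 transcripts.

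TPM was summed per gene. limma 3.58.1 in R 4.3.3 was run on log2(TPM + 1) with 4 group means, all 12 libraries, a variance trend and 8 residual degrees of freedom, over the 12419 genes that reached 1 TPM in 3 or more libraries, two-sided, called at a Benjamini-Hochberg adjusted p under 0.05. Transcripts were fitted the same way (32755). Log2 differences on this scale understate those of low genes. With no counts, depth is unknown, so only the spread between libraries gives precision. The script was tested on simulated data.

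The members and gene lists were chosen with earlier results of these data known. For each list, up to 4 called genes with the smallest p per mean comparison are named, except 1 that is not reported here, and for each member the 3 genes of highest r were found. Dbi, Plin1, Plin3 to Plin5, Rxra, Gpihbp1 and single transcripts were named outside that rule, after their values were seen. Deviations of same-numbered libraries had no common sign over the pairs of groups, and no block was used in the main fit. Whether replicate numbers mark a shared culture or batch cannot be told from these deviations. Alternatives covered the pseudocount, filter, scaling, variance model, library weights, replicate block, transcript length, length and GC trends, length floor, which libraries were fitted, and each library left out. No pair of libraries held identical values.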

Additional observations from a re-analysis of the deposited data

How the results depend on the processing

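The count of members called for the ligand as the mean of both regions (5) was 3 without a filter on low values, 3 with transcripts of 1000 nt or more and 3 with the length floor as a covariate, and 4 to 5 when 1 library was left out. In cerebellum (5) it was 3 without the filter, 2 of 7 measured members with transcripts of 1000 nt or more and 1, Pla2g7, with the length floor, and 3 to 5 with 1 library left out. In forebrain (2) it was 1 without the filter, 1 without the variance trend, 0 with only the groups compared, 1 without the cerebellum IL-34 group (chosen after seeing the data) and 1 to 3 with 1 library left out. For cerebellum minus forebrain with IL-34 (3) it was 5 with transcripts of 1000 nt or more, 1 with the length floor and 3 to 3 with 1 library left out. With CSF-1 (4) it was 3 to 4, and as the mean of both ligands (4) 4 to 4. The Plin2 region call was lost in both without the filter and with quantile normalization, as the mean of both ligands with the length floor, and with CSF-1 without the variance trend and with only the groups compared. Fabp4 and Fabp5 gained calls, lower in cerebellum as the mean of both ligands, with transcripts of 1000 nt or more, and Fabp5 also with the length floor. The sign of Fabp5 in cerebellum turned, to -0.27, with transcripts of 1000 nt or more, which leave only its retained-intron form. With 1 library left out, the Fabp3 call as the mean of both regions was kept in 3 of 12 fits, those without forebrain CSF-1 replicate 1, forebrain IL-34 replicate 1 or cerebellum CSF-1 replicate 3. The lowest cerebellar count came without cerebellum CSF-1 replicate 1 or cerebellum IL-34 replicate 2.

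Of the 106 pathway genes, 16 were called for the ligand mean. This was 6 without the filter, 26 of 98 with transcripts of 1000 nt or more, 7 with the length floor, and 7 to 18 with 1 library left out. The region mean (22) was 16 to 24. Why these counts moved was not tested. Of 18 same-numbered pairs of libraries, 5 had deviations correlated over 0.1, and the pairs ran from -0.45 to 0.46. They were 0.46, 0.17 and 0.26 for cerebellum CSF-1 with forebrain IL-34, and -0.40, 0.13 and -0.42 for the 2 forebrain groups. Libraries also differ in length floor, so these values cannot tell whether replicate numbers mark a shared culture or batch. With the replicate block, 9 pathway genes were called for the ligand mean, and the members called were 4 for the ligand mean and in cerebellum (Fabp3 no longer called) and 3 in forebrain (Fabp4 now called). No scaling moved the median of all genes by over 0.1. TPM carries no depth, so whether the scatter of Fabp3 and Fabp4 is counting error cannot be told apart from culture differences, and transcripts near the length floors are the least certain.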
